A study of Mus musculus with 6 samples.

Results

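The AP-1 genes other than Jun are described here by the open chromatin around them in mouse leukaemia cells. The members are Junb, Jund, Fos, Fosb, Fosl1, Fosl2, Batf, Batf3, Atf3 and Maff. Every accessible region (peak) that the authors' table assigns to one of these genes and that lies within 100000 bp of its transcription start site was taken, without regard to its values. That gave 286 peaks of 175929 in the table, namely 75 for Fos, 35 for Jund, 34 for Fosb, 30 for Maff, 28 for Batf, 26 for Batf3, 22 for Fosl2, 14 each for Atf3 and Junb, and 8 for Fosl1. A further 4 peaks of Fosl2 lay beyond the limit and were left out.

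The assay was ATAC-seq, whose transposase inserts adapters into DNA that is not packed in nucleosomes. All 6 libraries came from Usp18+/f UBCER-Cre AE9a leukaemia cells, which carry the AML1-ETO fusion variant AE9a from a retrovirus marked with GFP, 1 floxed and 1 wild-type Usp18 allele, and a Cre recombinase under the ubiquitin C promoter that tamoxifen switches on. Sick recipient mice were given oil (replicates 1, 2 and 4) or tamoxifen (replicates 1, 3 and 4), and Lin- c-Kit+ GFP+ cells were sorted from the spleen 3 days after the first injection. The tamoxifen group is meant to lose the floxed allele (Usp18+/Δ), while both groups carry the Cre. As no tamoxifen-treated cells without the floxed allele are among the groups, the drug and the allele loss cannot be told apart. Per the methods, cells of this set were sorted after 3 injections of oil or tamoxifen. The labels do not give the age of the recipient mice, and the methods give only an age range for all mice of the study. The labels also do not tie a library to a mouse. The methods describe 3 mice in each group of the set sorted for ATAC-seq and RNA-seq together. Elsewhere the methods state that ATAC-seq was run in biological duplicate, without naming the cells. The libraries are taken here as separate samples, which these sources do not settle, and every p-value and SD below rests on it.

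AP-1 is a family of dimeric basic leucine zipper transcription factors. Jun proteins (Junb, Jund) pair with each other or with Fos proteins (Fos, Fosb, Fosl1, Fosl2) and bind the TPA response element, TGANTCA. Batf and Batf3 are short relatives that pair with Jun proteins and, in lymphoid and dendritic cells, act together with interferon regulatory factors. Atf3 is a stress-induced member that also binds the cAMP response element, TGACGTCA, and Maff is a small Maf protein without a transactivation domain. Many of these genes are immediate early genes, whose promoters respond within minutes to growth factor and stress signals.

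The sequences on which the description below turns are the distal and intronic peaks of Batf, Batf3 and Fosl2 with the smallest p-values, the tallest Fosl2 peak, and the bases upstream of 3 start sites. Capitals mark matches, on either strand, to TGANTCA, TGACGTCA, the CArG box of serum response factor, the Runx core TGTGGT (or ACCACA), the interferon response string (GAAA, any 2 bases, GAAA), the NF-kB consensus or the Ets string GGAAGT (or ACTTCC). Peaks are given on the plus strand of mm10.

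Batf intron 1, chr12:85687926-85688162: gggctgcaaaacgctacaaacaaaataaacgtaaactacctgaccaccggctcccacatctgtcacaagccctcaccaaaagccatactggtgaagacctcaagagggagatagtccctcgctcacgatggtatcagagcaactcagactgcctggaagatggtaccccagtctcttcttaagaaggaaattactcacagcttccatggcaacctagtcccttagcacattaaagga
Batf upstream distal, chr12:85647448-85647684: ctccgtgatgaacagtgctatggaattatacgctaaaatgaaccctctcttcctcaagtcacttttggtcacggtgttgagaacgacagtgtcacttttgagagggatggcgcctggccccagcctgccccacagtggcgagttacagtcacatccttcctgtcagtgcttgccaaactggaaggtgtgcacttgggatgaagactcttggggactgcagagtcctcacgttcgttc
Batf3 upstream distal, chr1:191085605-191085815: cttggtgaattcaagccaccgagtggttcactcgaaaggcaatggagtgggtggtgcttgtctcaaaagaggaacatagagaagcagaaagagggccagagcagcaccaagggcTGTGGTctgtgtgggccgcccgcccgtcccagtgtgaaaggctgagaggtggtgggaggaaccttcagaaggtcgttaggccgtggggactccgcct
Fosl2 upstream distal, chr5:32112583-32112810: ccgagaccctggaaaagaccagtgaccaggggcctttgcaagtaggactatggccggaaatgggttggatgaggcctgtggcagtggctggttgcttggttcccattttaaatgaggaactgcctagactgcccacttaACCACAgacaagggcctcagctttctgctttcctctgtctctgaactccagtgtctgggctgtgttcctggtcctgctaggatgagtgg
Fosl2 promoter, tallest peak, chr5:32135678-32135885: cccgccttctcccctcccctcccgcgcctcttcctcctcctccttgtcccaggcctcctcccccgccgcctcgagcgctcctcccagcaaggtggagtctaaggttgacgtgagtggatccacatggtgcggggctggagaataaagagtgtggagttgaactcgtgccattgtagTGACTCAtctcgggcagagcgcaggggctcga

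The 250 bases upstream of the RefSeq start sites of Batf, Fosl2 and Fos (mm10, plus strand in each case) are shown to set the promoter with the largest difference beside that of 2 Fos genes. Of the 10 members, 9 had a promoter in the RefSeq table, Fosl1 being the exception.

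Batf, chr12:85686470-85686719: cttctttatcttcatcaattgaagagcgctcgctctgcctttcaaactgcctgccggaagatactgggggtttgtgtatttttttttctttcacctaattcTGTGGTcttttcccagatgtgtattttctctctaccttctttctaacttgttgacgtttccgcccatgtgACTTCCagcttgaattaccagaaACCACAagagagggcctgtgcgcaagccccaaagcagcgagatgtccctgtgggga
Fosl2, chr5:32136222-32136471: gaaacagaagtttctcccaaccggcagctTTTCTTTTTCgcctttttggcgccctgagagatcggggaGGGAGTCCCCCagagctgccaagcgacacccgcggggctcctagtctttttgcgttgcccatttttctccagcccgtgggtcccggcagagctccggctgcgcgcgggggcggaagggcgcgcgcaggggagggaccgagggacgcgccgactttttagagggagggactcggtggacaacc
Fos, chr12:85473640-85473889: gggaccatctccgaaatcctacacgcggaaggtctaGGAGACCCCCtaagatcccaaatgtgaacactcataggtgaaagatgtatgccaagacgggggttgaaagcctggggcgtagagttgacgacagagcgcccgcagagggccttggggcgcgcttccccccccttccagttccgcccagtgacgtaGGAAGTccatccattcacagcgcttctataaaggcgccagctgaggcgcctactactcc

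The Batf promoter held 2 Runx core strings and 1 Ets string, the Fos promoter 1 NF-kB and 1 Ets string, and the Fosl2 promoter 1 interferon response string and 2 overlapping NF-kB matches. Of 32851 upstream stretches of 250 bases in the RefSeq table, 14.0% held the Runx core, 19.7% the Ets string, 7.25% the NF-kB consensus, 2.98% the interferon response string, 6.75% TGANTCA, 1.55% TGACGTCA and 1.47% a CArG box. Neither Batf peak shown held any of the 7 strings. The Batf3 peak and the distal Fosl2 peak held 1 Runx core each, a string found in 17.8% and 19.9% of all peaks of like length (within 5 bp). Of these 5 peaks, the Fosl2 promoter peak was the 1 with a TPA response element, TGACTCA, and 5.99% of peaks of like length held TGANTCA.

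The libraries held 57.4 to 74.7 M mapped tags, of which 28.2 to 30.5% fell in peaks, with a median of 45 to 57 tags per peak. Peaks within 3000 bp of the start site of progenitor genes (Kit, Cd34, Myb, Runx1, Flt3 and Mpo; all 6 had such peaks) summed to 7219 to 7383 normalised tags in oil and 7243 to 8185 in tamoxifen. Genes of T cells (4 of 7 with such peaks), B cells (3 of 6) and mature myeloid cells (2 of 8) gave 448 to 583, 711 to 886 and 67.3 to 89.1 tags over both groups, and no such peak was found for Cd3d, Cd4, Cd8a, Cd79b, Pax5, Ms4a1, Csf1r, Ly6g, S100a8, S100a9, Camp or Ltf. Erythroid genes (6 of 6) summed to 5662 to 5917 tags in oil and 5176 to 5495 in tamoxifen, without overlap, and their part in the results below was not tested. The 15 peaks of Usp18 summed to 1772 ± 15.1 tags in oil and 1738 ± 46.7 in tamoxifen (SD, n = 3), which does not measure whether the floxed allele was lost.

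In oil-treated cells the AP-1 genes differed widely in how open they were. Normalised tags were summed over a gene's peaks and divided by the length those peaks covered. This measure falls with the number of small peaks assigned to a gene and is not the level of its promoter. At the peak nearest the start site the order differed, with 3190 tags per kb at Junb, 2077 at Fos, 1860 at Fosb and 110 at Jund. The Jund value is that of a small peak (26.2 tags in oil) and does not describe its promoter region. Its peak 1197 bp after the start had 4127 tags per kb in oil. Junb was the most open, with 1392 tags per kb of peak (range over the 3 oil libraries 1342 to 1425), which is above 95.5% of the 19781 genes with peaks. Jund followed at 1102 (1040 to 1139) and Fosb at 833 (810 to 854). The remaining 7 lay near or below the median of all genes, 339 tags per kb. Maff stood at 360 (358 to 362), Fos at 320 (316 to 324) and Fosl2 at 297 (293 to 302). Fosl1 (231 to 248 over the 3 libraries) and Batf3 (217 to 234) overlapped, and Batf (189 to 198) did not overlap Atf3 (176 to 187), the least open of the 10. In this order, Fosl1 and Batf3 were the only neighbours whose oil ranges overlapped.

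**Figure D1:**
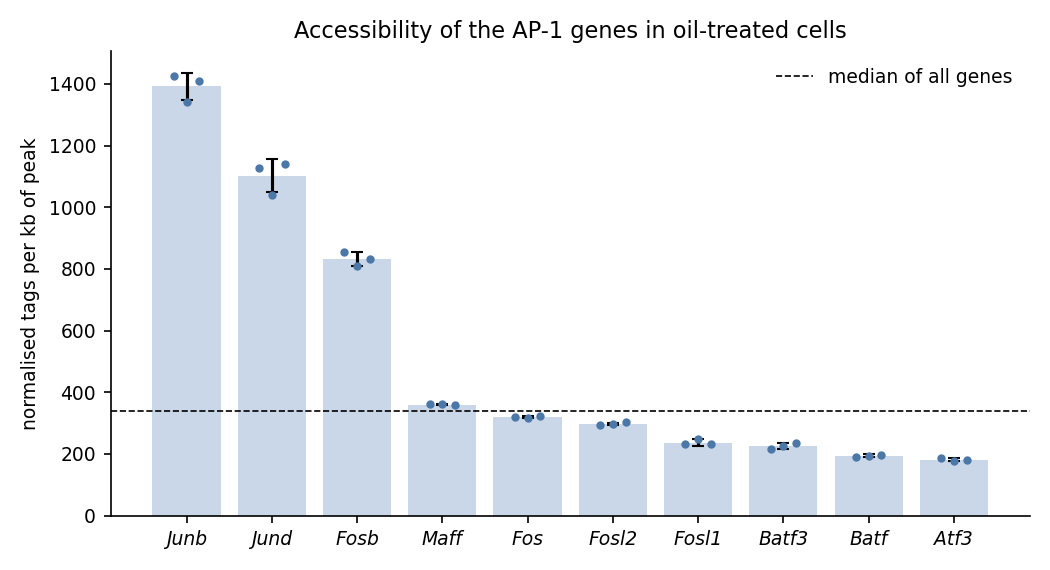
Normalised ATAC-seq tags per kb of peak for each AP-1 gene in oil-treated cells. Bars are means, points the 3 oil libraries, error bars the SD, and the dashed line the median of all genes (339). Junb, Jund and Fosb stood at 833 to 1392, the other 7 genes between 182 and 360.

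The level of a gene and its number of peaks were different things. Fos had the most peaks, 75, most of them small. Its tallest peak was not at the promoter but 18482 bp upstream, with 1026 ± 48.9 normalised tags in oil and 1049 ± 51.5 in tamoxifen (SD, n = 3). The tallest Junb peak (1349 ± 44.2 tags in oil) and the tallest Jund peak (1028 ± 68.3) lay in the gene bodies, 799 and 1197 bp after the start sites. At Batf the tallest peak, 561 ± 23.6 tags in oil, lay 18992 bp into the gene, whereas its start site had 91.2 ± 22.3.

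Comparing tamoxifen with oil asks whether the chromatin of AP-1 genes opened or closed in the cells meant to have lost a Usp18 allele. Of the 286 peaks, 4 had more tags after tamoxifen at an adjusted p under 0.05 (DESeq2, Benjamini-Hochberg over all peaks) and 0 had fewer. With edgeR these were 6 and 0, for which no share over all peaks was computed. Over all 175929 peaks, 1.22% passed by DESeq2 with more tags and 0.167% with fewer, so the members' share in the first direction, 1.40%, was close to the background. With a fold change over 2 required as well, 0 members passed by DESeq2 and 1 by edgeR, a Batf peak 38600 bp upstream, beside 0.654% of all peaks by DESeq2. At an unadjusted p with that fold, the same peak was the 1 member, and no share over all peaks was computed for this rule. At an unadjusted p under 0.05, 19 members had more tags (6.64%, background 6.18%) and 0 had fewer (background 2.84%). The 3 tamoxifen libraries lay above all 3 oil libraries at 45 members (15.7%, background 11.9%) and below them at 21 (background 10%). The median log2 fold change was 0.05 over the members and -0.0013 over all peaks.

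**Figure D2:**
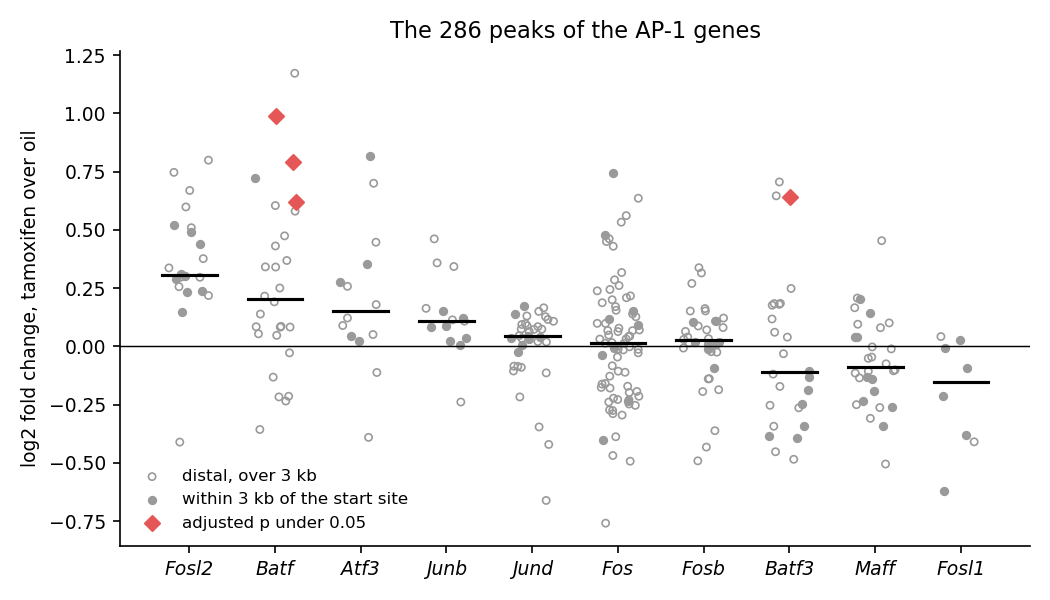
Log2 fold change of tags, tamoxifen over oil, for the 286 peaks by gene. Filled grey points lie within 3 kb of the start site, open points farther away, red diamonds have an adjusted p under 0.05 (3 at Batf, 1 at Batf3), and black bars are medians. The median was 0.31 at Fosl2, 0.20 at Batf and -0.15 at Fosl1.

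The peaks that passed lay at Batf and Batf3. All 3 peaks within 3000 bp of the Batf start site had more tags after tamoxifen in every library, and 2 of them rose. The first, in intron 1 at 1324 bp after the start, had 59.0, 40.5 and 60.9 normalised tags in oil replicates 1, 2 and 4, and 124, 111 and 85.7 in tamoxifen replicates 1, 3 and 4. The groups did not overlap, and the log2 fold change was 0.99 ± 0.24 (SE, DESeq2 adjusted p = 0.00455). The second covered the start site itself (chr12:85686597-85686989) and had 66.2, 109 and 98.1 tags in oil against 176, 175 and 126 in tamoxifen. Tamoxifen replicate 4 was the lowest of its group at both peaks, yet above every oil library. The log2 fold change at the start site was 0.79 ± 0.20 (DESeq2 adjusted p = 0.0126).

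Between these lay a small peak at 838 bp after the start, with 16.6 to 23.4 tags in oil and 31.2 to 34.3 in tamoxifen, which did not pass the test (log2 fold change 0.72 ± 0.37, DESeq2 adjusted p = 0.561). Farther away, a peak 39154 bp upstream had 101, 113 and 102 tags in oil and 175, 167 and 145 in tamoxifen, again without overlap (log2 fold change 0.62 ± 0.17, DESeq2 adjusted p = 0.0269). The table assigns it to Batf as the nearest start site, but it lies 7570 bp past the 3′ end of Jdp2, a gene of the same family. A neighbour 38600 bp upstream had the largest log2 change of all members, 1.17 ± 0.44, on only 12.8 ± 5.34 tags in oil and 29.6 ± 5.82 in tamoxifen (DESeq2 adjusted p = 0.223). In contrast, the 12 peaks from intron 2 to past the 3′ end of Batf summed to 1064 ± 11.3 tags in oil and 1108 ± 68.5 in tamoxifen, with overlapping groups.

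**Figure D3:**
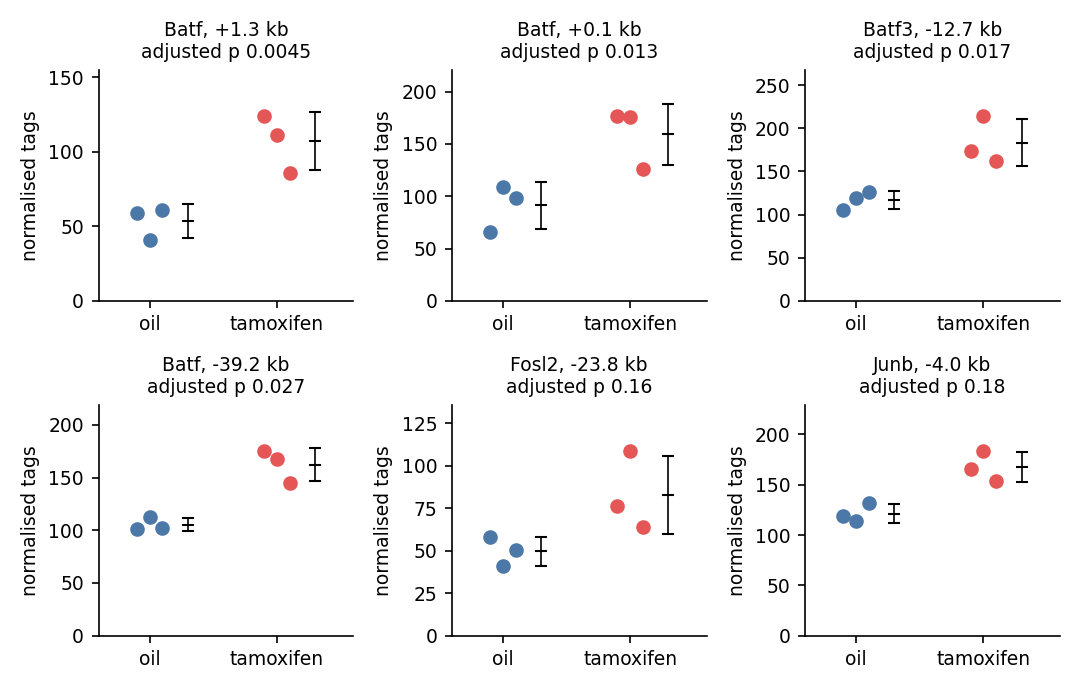
Normalised tags in each library at the 4 AP-1 peaks past the adjusted p threshold and at the next 2, titled by gene and distance from its start site. Points are libraries (oil replicates 1, 2 and 4, then tamoxifen replicates 1, 3 and 4), with mean ± SD beside them. No tamoxifen library fell within the oil range at any of the 6 peaks.

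Which of the 4 peaks passed depended on the libraries. Without tamoxifen replicate 1 or without tamoxifen replicate 3, 0 of the 286 passed. Leaving out oil replicate 1 or oil replicate 4 left the Batf intron 1 peak alone, and leaving out oil replicate 2 left the Batf start site peak alone. Without tamoxifen replicate 4, 6 passed, the 4 named plus a Fosl2 peak 23776 bp upstream and a Junb peak 3804 bp past the start. The log2 fold change of the Batf intron 1 peak stayed between 0.82 and 1.13 in these 6 fits.

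Batf3 and Atf3 lie on chromosome 1 with their 3′ ends 61353 bp apart. At Batf3, a peak 12704 bp upstream rose from 105, 119 and 126 tags in oil to 173, 214 and 162 in tamoxifen (log2 fold change 0.64 ± 0.17, DESeq2 adjusted p = 0.0173). The promoter of Batf3 went the other way without passing the test. All 7 peaks within 3000 bp of its start had a log2 fold change below 0, from -0.39 to -0.10. Of all peaks within 3000 bp of a start site, 45.8% had a log2 fold change above 0, and peaks of 1 gene are not independent. The 7 peaks summed to 389, 442 and 443 tags in oil and 362, 347 and 371 in tamoxifen. Tested as a sum of promoter-proximal peaks over all genes, the difference was -0.24 ± 0.11 on the log2 scale (DESeq2 adjusted p = 0.328). Over all 26 peaks the Batf3 sum was the same in both groups within their spread, 1785 ± 69.9 and 1776 ± 36.9 tags.

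At Atf3, 12 of 14 peaks had a log2 fold change above 0 (all peaks 49.7%) and none passed the test. The peak nearest its start had 229, 179 and 182 tags in oil and 226, 219 and 269 in tamoxifen, so the groups overlapped (log2 fold change 0.27 ± 0.15, DESeq2 adjusted p = 0.594). The smallest adjusted p of its peaks belonged to one 13099 bp upstream, with 26.5, 28.3 and 24.6 tags in oil and 51.7, 39.6 and 37.2 in tamoxifen (log2 fold change 0.70 ± 0.32, DESeq2 adjusted p = 0.454). Summed over the gene, Atf3 had 791 to 840 tags in oil and 868 to 954 in tamoxifen, without overlap (log2 fold change 0.18 ± 0.08, DESeq2 adjusted p = 0.165; edgeR adjusted p = 0.0498).

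Fos, Jdp2 and Batf follow each other on chromosome 12, with 212.8 kb from the start of Fos to that of Batf. Jdp2 codes for a bZIP protein that pairs with Jun proteins and represses AP-1 sites. The plot of this stretch shows differences at Jdp2 and at the Batf promoter and none past the test at Fos. At Jdp2, 2 of 21 peaks rose, beside 1.22% of all peaks. The first lay 5968 bp upstream (29.5 ± 7.75 tags in oil, 60.3 ± 7.45 in tamoxifen, DESeq2 adjusted p = 0.045). The second lay in an intron 29847 bp after the start (33.5 ± 4.57 and 76.4 ± 14.2, DESeq2 adjusted p = 0.00241). The start site peaks went from 523 ± 19.9 to 581 ± 50.0 tags at Fos, from 42.4 ± 3.22 to 74.9 ± 19.5 at the tallest of the 3 Jdp2 promoter peaks (DESeq2 adjusted p = 0.116) and from 91.2 ± 22.3 to 159 ± 29.0 at Batf. Whether the genes differed from each other was not tested peak by peak.

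**Figure D4:**
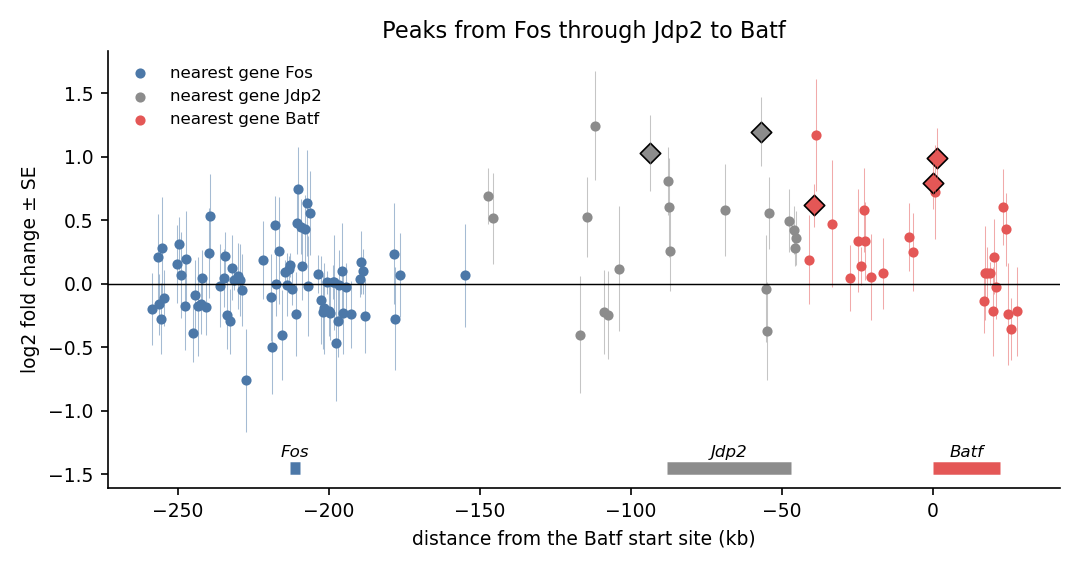
Log2 fold change ± SE of each peak assigned to Fos, Jdp2 or Batf, by distance in kb from the Batf start site, with the extent of the 3 genes as blocks beneath. Diamonds with black rims have an adjusted p under 0.05 (2 at Jdp2, 3 at Batf). The 75 Fos peaks scatter around 0 with a median of 0.01.

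To give each gene a single value, the tags of its peaks were summed and tested across all 19781 genes. Of the 10, Fosl2 and Batf rose and 0 fell at an adjusted p under 0.05, where 4.98% of all genes passed with more tags and 1.02% with fewer. At an unadjusted p under 0.05, 3 were higher and 0 lower, and edgeR called 3 and 0. The shares of all genes under these rules were not computed, here or for the lists below, so these counts have no background. The tamoxifen libraries lay above every oil library at 3 of the 10 sums (background 16.4%) and below at 1, Maff (background 14.2%). Fosl2 had 1812, 1836 and 1868 normalised tags in oil and 2152, 2338 and 2132 in tamoxifen, a log2 fold change of 0.26 ± 0.06 (SE, DESeq2 adjusted p = 0.000996). Batf had 1836, 1891 and 1923 tags in oil and 2340, 2193 and 2018 in tamoxifen, a log2 fold change of 0.21 ± 0.07 (DESeq2 adjusted p = 0.027). These changes were small, at 1.20-fold and 1.16-fold. Leaving out single libraries kept Fosl2 past the threshold in 6 of 6 cases (DESeq2 adjusted p up to 0.0478), whereas Batf was lost in 5 of 6 and kept without tamoxifen replicate 4. Without tamoxifen replicate 1, the Batf value was 0.16 (DESeq2 adjusted p = 0.336), and without tamoxifen replicate 3 it was 0.21 (0.162). Leaving out an oil library gave 0.20 (0.274) for replicate 1, 0.22 (0.171) for replicate 2 and 0.23 (0.112) for replicate 4.

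**Figure D5:**
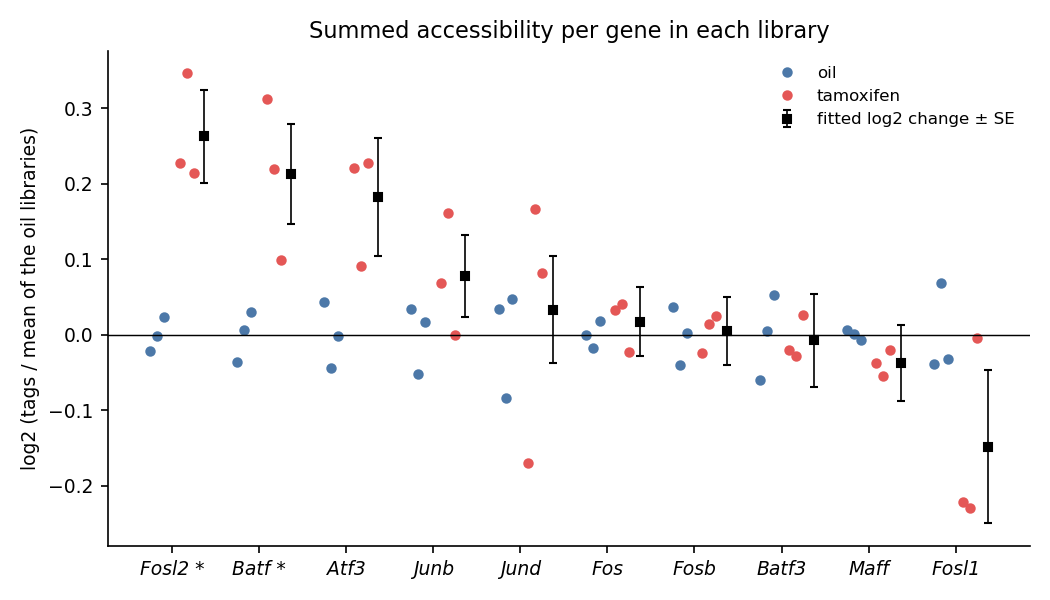
Normalised tags summed per gene in each library, as log2 of the ratio to the mean of the oil libraries, with the fitted log2 change ± SE (DESeq2). Stars mark an adjusted p under 0.05 across all genes. Tamoxifen libraries lay above every oil library at Fosl2, Batf and Atf3, and tamoxifen replicate 1 was the lowest library at Jund.

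At Batf the promoter-proximal peaks passed on their own and the distal ones did not, although both classes gained a like number of tags. The proximal peaks went from 143, 172 and 182 tags in oil to 335, 312 and 250 in tamoxifen, a log2 fold change of 0.85 ± 0.15 (DESeq2 adjusted p = 3.65e-06, in a fit where 2.48% of genes passed with more tags), while the distal ones went from 1730.5 ± 13.1 to 1866 ± 124 tags (SD, n = 3; log2 fold change 0.11 ± 0.08, DESeq2 adjusted p = 0.45). The classes were not tested against each other. At Fosl2 both classes passed, with 0.25 ± 0.06 for the proximal peaks (DESeq2 adjusted p = 0.00373) and 0.35 ± 0.11 for the distal ones (DESeq2 adjusted p = 0.0343, background 3.95%).

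No single Fosl2 peak passed the test, although 21 of 22 had a log2 fold change above 0 (background 49.7%). At 11 the tamoxifen libraries lay above every oil library (background 11.9%). The peak nearest its start had 165, 162 and 175 tags in oil and 207, 212 and 206 in tamoxifen (log2 fold change 0.31 ± 0.14, DESeq2 adjusted p = 0.428). The tallest, 691 bp upstream and printed above with its TPA response element, had 462, 489 and 429 against 521, 578 and 527 (log2 fold change 0.24 ± 0.10, DESeq2 adjusted p = 0.332). The smallest adjusted p belonged to the peak 23776 bp upstream, where 57.9, 41.0 and 50.6 tags stood against 76.4, 109 and 64.2 (log2 fold change 0.75 ± 0.26, DESeq2 adjusted p = 0.155). Tamoxifen replicate 3 was the highest library at each of these 3. Peaks of one gene in one library are not independent measurements.

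Among all genes with at least 100 normalised tags on average, the 3 whose sums followed Fosl2 most closely over the 6 libraries were Lilr4b, Nkg7 and Rbfox1 (Pearson r of 0.997, 0.997 and 0.996 on the log2 scale). Of the 16949 genes compared, 413 had an r of at least 0.95. Their log2 fold changes were 0.77, 0.99 and 0.19.

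Set against Fos within the same library, which removes depth, the Fosl2 to Fos ratio of tags was -2.00, -1.96 and -1.97 on the log2 scale in oil and -1.78, -1.67 and -1.74 in tamoxifen, a difference of 0.25. The Batf to Fos ratio was -1.98, -1.92 and -1.93 in oil and -1.66, -1.77 and -1.82 in tamoxifen, a difference of 0.19. In each case the groups did not overlap, and the exact two-sided permutation p was 0.1, the smallest that 3 libraries against 3 allow. Both ratios were chosen after the gene sums were seen, where Fosl2 and Batf already lay apart between the groups and Fos overlapped. The permutation p therefore adds nothing to those sums.

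For the classical Fos genes the sums did not differ beyond their spread. Fos, the immediate early gene, had 7249, 7164 and 7341 tags in oil and 7416, 7460 and 7135 in tamoxifen (log2 fold change 0.02 ± 0.05, 95% interval -0.07 to 0.11, DESeq2 adjusted p = 0.917). Its promoter peak had 545, 518 and 507 tags in oil and 587, 628 and 528 in tamoxifen, so the groups overlapped (DESeq2 adjusted p = 0.731). The promoter-proximal Fos peaks summed to 1888, 1860 and 1946 tags in oil and 2041, 2086 and 1988 in tamoxifen, without overlap. Their log2 fold change was 0.10 ± 0.05 (DESeq2 adjusted p = 0.541), and that of the distal Fos peaks was -0.035 ± 0.06 (DESeq2 adjusted p = 0.813). The smallest adjusted p among all Fos peaks was at a small one in the 3′ UTR, 28.7, 21.9 and 28.2 tags against 41.1, 55.7 and 36.3 (DESeq2 adjusted p = 0.408). Fosb had 9133, 8658 and 8912 tags in oil and 8750, 8990 and 9055 in tamoxifen (log2 fold change 0.0050 ± 0.05, 95% interval -0.08 to 0.09). Its promoter peak had 514 to 519 tags in oil and 492 to 565 in tamoxifen (DESeq2 adjusted p = 0.994), and its smallest adjusted p, 0.71 by DESeq2, was at a peak 17266 bp upstream with 346 to 407 against 302 to 353.

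Fosl1, which codes for Fra-1, was the least covered gene, and the precision was lowest there. It had 482, 519 and 484 tags in oil and 424, 422 and 493 in tamoxifen (log2 fold change -0.15 ± 0.10, DESeq2 adjusted p = 0.486), so the groups overlapped. Its promoter peak had 147 to 176 tags in oil and 142 to 178 in tamoxifen. A peak 807 bp upstream had 28.1, 49.7 and 34.9 tags in oil and 24.2, 15.6 and 33.1 in tamoxifen (log2 fold change -0.62 ± 0.37, DESeq2 adjusted p = 0.683).

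The Jun genes were the most open, and neither passed the test. Junb had 6324, 5958 and 6249 tags in oil and 6479, 6911 and 6177 in tamoxifen (log2 fold change 0.08 ± 0.05, DESeq2 adjusted p = 0.494). At its start site 1104, 1046 and 1027 tags stood against 1125, 1186 and 1049 (DESeq2 adjusted p = 0.885). A peak 4034 bp upstream (chr8:84982575-84982990) had 119, 114 and 132 tags in oil and 166, 183 and 154 in tamoxifen, without overlap (log2 fold change 0.46 ± 0.16, DESeq2 adjusted p = 0.178; edgeR adjusted p = 0.0454). This peak, 416 bp wide, held 2 NF-kB and 3 Ets strings. Of all peaks, with a median width of 250 bp, 6.94% held the NF-kB consensus and 22.9% the Ets string. The last Junb peak, 4309 bp past the start, lies inside the neighbouring gene Prdx2, whose 3′ end faces that of Junb.

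Jund stood apart by the spread of its tamoxifen libraries. Its sum was 12168, 11214 and 12286 tags in oil and 10570, 13344 and 12586 in tamoxifen (log2 fold change 0.03 ± 0.07, DESeq2 adjusted p = 0.888). The spread came from 16 peaks between 3298 and 9991 bp past the start, which summed to 8150, 7274 and 8065 tags in oil and 6745, 9384 and 8477 in tamoxifen. Tamoxifen replicate 1 was the lowest tamoxifen library at 16 of these 16 peaks. RefSeq places 15 of them inside Iqcn, which starts 705 bp past the end of Jund, so they may belong to that gene. Without tamoxifen replicate 1 the Jund sum differed by 0.12 on the log2 scale (DESeq2 adjusted p = 0.383). The peak nearest the Jund start was small, with 17.6 to 37.2 tags in oil and 26.2 to 28.4 in tamoxifen. The smallest adjusted p, 0.727 by DESeq2, was at the 3′ end, with 771, 752 and 771 tags against 767, 951 and 814.

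Maff had 3412, 3397 and 3378 tags in oil and 3307, 3269 and 3348 in tamoxifen, which did not overlap but differed by only -0.04 ± 0.05 on the log2 scale (DESeq2 adjusted p = 0.793). Its promoter peak had 290 to 320 tags in oil and 284 to 331 in tamoxifen. A peak 8299 bp upstream had 62.3, 71.2 and 53.8 tags in oil and 44.5, 40.7 and 46.6 in tamoxifen (log2 fold change -0.51 ± 0.26, DESeq2 adjusted p = 0.574).

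Summed over all 286 peaks, the libraries held 44904, 42908 and 43794 tags in oil (43869 ± 1000 SD, n = 3) and 44340, 48470 and 45115 in tamoxifen (45975 ± 2195). The groups overlapped. The peaks had been called in both peak lists for 73.1% of the members (71.4% of all peaks), in the oil list alone for 12.9% (17.4%) and in the tamoxifen list alone for 14.0% (11.2%).

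AP-1 genes are known to be bound by AP-1 proteins themselves, so their peaks were searched for the sites. TGANTCA was found in 30 of 286 members (10.5%) and in 8.87% of all 175738 peaks with a sequence. Among peaks of 226 to 355.5 bp, the middle of the members' widths, the shares were 13.8% and 8.93%. Fosb and Jund had 5 such peaks each and Junb had 0. TGACGTCA was found in 1 member (0.350%, all peaks 0.669%) and a CArG box in 5 (1.75%, all peaks 1.22%). The Runx core was found in 30.4% (all peaks 24.2%), the NF-kB consensus in 11.5% (6.94%), the interferon response string in 4.20% (3.09%) and the Ets string in 23.1% (22.9%). In the same range of widths, the members fell below all peaks for the CArG box (0.690% against 1.17%), the Ets string (21.4% against 23.2%) and TGACGTCA (0% against 0.602%). They lay above for the Runx core (28.3% against 24.1%), the NF-kB consensus (12.4% against 6.55%) and the interferon response string (4.83% against 2.78%). Members with TGANTCA had a median log2 fold change of 0.05, the same as those without it, and 0 of the 4 that passed the test held it.

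Among other relatives of the family, Jun and Jdp2 rose and 0 of 15 genes with peaks fell by DESeq2 or edgeR (4 higher and 2 lower at an unadjusted p under 0.05). Of all genes, 4.98% passed by DESeq2 with more tags and 1.02% with fewer. Jun, the founding member, had 4301 ± 194 tags in oil and 5987 ± 498 in tamoxifen (SD, n = 3, log2 fold change 0.48 ± 0.06 SE, DESeq2 adjusted p = 3.21e-11). Of its 25 peaks, 11 passed with more tags (all peaks 1.22%). Jdp2 had 925 ± 49.1 and 1234 ± 12.6 (log2 fold change 0.42 ± 0.07, DESeq2 adjusted p = 1.39e-06). The difference between these and the 10 members was not tested. The list of upstream regulators held serum response factor, its cofactors, MAP kinases, Fbxw7 and Cop1. Fbxw7 and Cop1 are ubiquitin ligase components that act in the breakdown of Jun proteins. These regulators passed in 0 of 18 cases by DESeq2 or edgeR (0 at an unadjusted p under 0.05). Of their 259 peaks, 1 passed with more tags (all peaks 1.22%).

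Of 11 textbook AP-1 target genes with peaks, 2 rose, where 4.98% of all genes passed with more tags. Plaur, the urokinase receptor, went from 837 ± 37.7 to 1061 ± 75.3 tags (log2 fold change 0.34 ± 0.08, DESeq2 adjusted p = 0.00104). Vim, which codes for the intermediate filament vimentin, went from 1726 ± 55.4 to 2143 ± 221 (0.31 ± 0.07, DESeq2 adjusted p = 0.00122). Of 15 immediate early genes outside the family, 1 passed with more tags by DESeq2 (background 4.98%). This was Egr3, a zinc finger factor, which rose from 2272 ± 102 to 2750 ± 127 tags (0.27 ± 0.06, DESeq2 adjusted p = 0.000395). The other 14, Egr1 among them, did not pass by DESeq2. edgeR also called Nr4a2, lower.

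Heat shock genes, which respond to stress as Fos and Atf3 can, went the other way. Hspa1a, Hspa1b, Hsph1, Hsp90ab1 and Dnajb1 fell, 5 of 11 genes with peaks (background 1.02%). Their sums fell by 1.31, 0.92, 0.98, 0.32 and 0.50 on the log2 scale (DESeq2 adjusted p from 1.97e-11 to 0.0235). In this list 0 genes rose (0 at an unadjusted p under 0.05, 0 by edgeR). The list summed to 54507 to 66509 tags in oil and 39054 to 48792 in tamoxifen, without overlap, with tamoxifen replicate 1 the lowest. Its part in the values of the AP-1 genes was not tested. With edgeR, 3 of these 5 passed.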

How the data were processed

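Libraries were made by the authors from permeabilised nuclei cut with transposase. Per the labels and the study's methods, the reads were aligned to mm10 with Bowtie2 (default parameters), and peaks were called and tags counted over both groups' peaks with HOMER. Versions are not given in the sources used here. The deposited values are estimated counts of tags, made by the authors with HOMER and not normalized, in steps of 0.5 for each peak and library. The nearest gene and distance to its start site are the authors' annotation. Library depth was 17.5 to 21.1 M tags in peaks, which limits precision at small peaks, and no depth correction other than size factors was made.

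Counts were rounded to whole numbers and fitted over all 175929 peaks with the DESeq2 1.42.0 Wald test (R 4.3.3), tamoxifen against oil, with Benjamini-Hochberg adjustment and thresholds of 0.05 and, as in the study, a fold change over 2. Tags were also summed per gene over peaks within 100000 bp (19781 genes), and over peaks within or beyond 3000 bp. edgeR 4.0.16 (quasi-likelihood, robust) was the alternative test. The scripts were tested on simulated data. Normalised tags are counts divided by DESeq2 size factors. Peak sequences were read from GRCm38.p6, with 0 peaks beyond a chromosome's end over 21 chromosomes, and promoters from RefSeq.

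Peaks named were the one nearest each start site, all past the adjusted p threshold, and, for genes with none, the one with the smallest adjusted p. Other peaks and the sequences shown were chosen after their values were seen, as were the Runx, interferon response, NF-kB and Ets strings. The members and lists were chosen with earlier results of these data known, so no test was run over a list. Alternatives covered size factors, edgeR, a filter on low tags (10 tags in 3 libraries), separate fits, distance limits, a looser threshold of 0.1, single libraries left out and a block on replicate numbers 1 and 4. The labels pair no libraries. The correlation of deviations from the group means was -0.044 for the libraries numbered 1 and 0.051 for those numbered 4.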

Additional observations from a re-analysis of the deposited data

How the results depend on the processing

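The 4 AP-1 peaks past the adjusted p threshold stayed at 4 under the 3 other sets of size factors, the filter on low tags, the 50000 bp limit and the threshold of 0.1. They numbered 6 with edgeR, 3 in separate fits, 2 within 10000 bp of the start site and 0 with the replicate block. Leaving out single libraries gave 0 to 6. Members past the fold threshold too numbered 1 with size factors from mapped tags, with edgeR and in separate fits, and 0 to 1 without single libraries. Gene sums past the threshold numbered 1 with distal peaks alone, 0 with the replicate block and 1 to 2 without single libraries. The median log2 change over the members stayed between 0.02 and 0.07. The libraries share only numbers (pairing correlations -0.044 and 0.051), and with the replicate block on 1 and 4, 4 libraries remain. In the other lists the block left 1 relative, 0 target genes and 0 immediate early genes, and edgeR gave 2 immediate early genes and 3 heat shock genes. Without single libraries the counts were 2 to 4 for relatives, 0 to 1 for upstream regulators, 0 to 2 for targets, 1 to 4 for immediate early genes and 2 to 8 for heat shock genes. These counts take both directions together. Outside the heat shock genes, leaving out tamoxifen replicate 4 added Nfe2, Bach1 and Nr4a2, lower with all 6 libraries, and Mapk14, Zfp36 and Btg2, higher.

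Changes of sign were seen for 9 peaks and gene sums, none past the threshold. On the log2 scale, with the replicate block the Jund sum was -0.085, the Fos sum -0.0050, the Fosb sum -0.020, the Batf3 sum 0.0055 and the Fosb peak at its start -0.036. With distal peaks alone the sums were -0.035 at Fos, -0.013 at Fosb and 0.037 at Batf3, and with proximal peaks alone 0.028 at Maff. The Batf3 sum was 0.0054 with size factors from tags in peaks and 0.028 with those from mapped tags. Leaving out single libraries gave sums of -0.038 to 0.125 at Jund, -0.014 to 0.024 at Fosb and -0.036 to 0.021 at Batf3. For the peaks nearest the start it gave -0.167 to 0.404 at Jund, -0.035 to 0.068 at Fosb, -0.045 to 0.120 at Fosl1 and -0.0041 to 0.107 at Maff. Causes were not tested. Of the values of single peaks and genes under alternatives, 335 kept their sign and side of the threshold, 29 lost it, 3 gained it and 24 changed sign. The alternatives for the other lists were added after seeing the data.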

Other observations

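The sums of tags varied more between tamoxifen libraries than between oil libraries at 8 of the 10 AP-1 genes. As a percentage of the mean, the SD was 11.8% against 4.95% at Jund, 9.07% against 4.21% at Fosl1, 7.39% against 2.35% at Batf, 5.66% against 3.13% at Junb, 5.23% against 3.03% at Atf3, 5.13% against 1.53% at Fosl2, 2.40% against 1.22% at Fos and 1.20% against 0.502% at Maff. Fosb had 1.80% against 2.67% and Batf3 2.08% against 3.91%. With 3 libraries a group these SDs are themselves imprecise, and the difference was not tested. The share of all genes with the larger spread in tamoxifen was not computed. The count of 8 therefore has no background and is not read as a trait of these genes.

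A run of 5 Batf3 peaks 8967 to 10651 bp upstream of its start, on the gene's side of the one that rose, summed to 384, 387 and 357 tags in oil and 292, 272 and 367 in tamoxifen, so the groups overlapped. The 10 Fosl2 peaks more than 3000 bp upstream summed to 341, 294 and 331 tags in oil and 430, 526 and 397 in tamoxifen, without overlap. Both runs were chosen after their values were seen.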
